A study of Mus musculus with 80 samples.

Results

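Sall4-knockout mouse embryonic stem (ES) cells that had received a mutant SALL4A protein were compared with Sall4 heterozygous ES cells, to see which transcripts still differed from the heterozygous state when the protein put back was a mutant. The comparison rested on 4 of the 80 samples of the series, chosen by their labels and not by any measured value. The KO + mutant group had 2 RNA libraries, from Sall4 delta/- cells transfected with mutant SALL4A, and the label of its second library names the transgene Flag-SALL4A-MUT. The het group had 2 RNA libraries from Sall4 flox/- cells. Every cell in the comparison therefore carried a null Sall4 allele, and the other allele was deleted in KO + mutant cells but still floxed in het cells. Replicate 1 of both groups is labelled C57BL/6J and was deposited in FPKM (fragments per kilobase of transcript, relative to all mapped fragments). Replicate 2 of both groups is labelled 129P2/OlaHsd, cell line E14.1, and was deposited in RPKM (reads per kilobase of transcript, relative to all mapped reads). The labels give both libraries of a group the same source identifier, although their strain labels differ, and nothing in them says that the 2 libraries came from separate cultures or clones, so the p-values below measure only how far these libraries differ, and that may be a technical matter. The residues changed in the mutant, the promoter of the transgene, the exons deleted and the number of clones are not given in the sources used here.

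SALL4 is a zinc finger transcription factor of ES cells and the early embryo, and SALL4A is its long isoform. The study concerns its cooperation with the TET enzymes, dioxygenases that oxidise methylated cytosine at CpG sites to hydroxymethylcytosine and further products, which DNA glycosylases and base excision repair can remove. Mouse ES cells kept with leukaemia inhibitory factor (LIF) express a core pluripotency network around Pou5f1, Sox2 and Nanog, and leave this naive state under FGF and WNT-dependent signals.

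Read totals cannot be had from these units, so the depth of the libraries is unknown and counting error has no interval here. The tables also differ in annotation, and in replicate 1 this difference follows the groups. There 24.5% of 20995 symbols had the same gene start and end in the KO + mutant and het tables, whereas in replicate 2 all 17863 symbols compared did. The KO + mutant replicate 1 table shares its layout with those of KO + wild-type SALL4A, the Sall1/Sall4 DKO and its WT, and the Sall1 KO and het lines, and the het replicate 1 table shares its layout with Sall4 KO replicate 1. In replicate 1, annotation and group cannot be told apart. Composition followed the layout too. In replicate 1 the 10 highest entries held 30.1% of all FPKM in KO + mutant, against 79.8% in het and 76.0% in Sall4 KO, while in replicate 2 they held 35.0% of all RPKM in KO + mutant and 39.8% in het. Values were therefore rescaled by the median ratio before any fold was taken, and a gene's log2 ratio in each replicate is given beside its fitted log2 difference.

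All 4 libraries expressed the core markers of ES cells. Pou5f1, which encodes OCT4, was at 463 FPKM and 539 RPKM in KO + mutant cells, against 488 FPKM and 706 RPKM in het cells. Sox2 was at 324 FPKM and 243 RPKM in KO + mutant cells, against 214 FPKM and 212 RPKM in het cells. Lin28a, an RNA-binding regulator of let-7 processing, was at 65.7 FPKM and 64.3 RPKM in KO + mutant cells, against 64.3 FPKM and 65.2 RPKM in het cells. These genes were picked after their values were seen, as markers of the labelled cell type. Each was within a 2-fold range over the 4 libraries, which does not speak for other markers. Nanog ranged more widely, from 138 FPKM in het replicate 1 to 397 RPKM in het replicate 2, and is described with the naive genes below.

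The targeted gene did not separate the groups. Sall4 (chromosome 2 from 168573831 to 168592701, mm9) was at 77.4 FPKM and 161 RPKM in KO + mutant cells, against 196 FPKM and 64.2 RPKM in het cells. The groups overlapped, and the within-replicate log2 ratios had opposite signs, -1.04 in replicate 1 and 1.56 in replicate 2. The fitted log2 difference was 0.26 ± 0.66 (SE), with a limma adjusted p of 0.894, and its sign turned to -0.0076 with values as deposited. Sall4 KO libraries without the transgene were at 358 FPKM and 218 RPKM, above het in both replicates, so the gene-level value does not report loss of the deleted exons and does not check the genotype labels. The sources used here do not say whether transgene reads enter this value. The labels were followed as given.

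The paralogs and the TET genes did not pass the test either. Sall1 was at 43.9 FPKM and 28.5 RPKM in KO + mutant cells, against 27.1 FPKM and 37.8 RPKM in het cells, which overlap. Sall2 was low in all 4 libraries, at 2.01 FPKM and 0.866 RPKM in KO + mutant cells and 1.83 FPKM and 2.26 RPKM in het cells. Tet1, the main TET enzyme of ES cells, was at 22.6 FPKM and 19.1 RPKM in KO + mutant cells, against 27.5 FPKM and 11.5 RPKM in het cells. Its log2 difference of 0.47 ± 0.30 (SE) had a limma adjusted p of 0.580. Tet2 and Tet3 had fitted log2 differences of 0.26 ± 0.25 and 0.20 ± 0.21 (SE).

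Across all genes, 11632 were fitted with limma, with Sall4 KO libraries added to the estimate of spread and the replicate number as a block. None passed an adjusted p of 0.05 (0 higher and 0 lower, 0% each), and the smallest adjusted p was 0.197. At an unadjusted p under 0.05 there were 566 genes higher in KO + mutant cells (4.87%) and 660 lower (5.67%). With values as deposited, and no rescaling, this split became 192 higher and 1595 lower, because the median log2 difference of all genes moved to -0.24, against -0.01 after scaling. An exact permutation of 2 libraries against 2 that ignores the replicate pairing cannot go below a two-sided p of 0.333. Keeping the pairing would allow fewer arrangements and a still higher floor. The 2 replicates gave log2 ratios of the same sign for 53.6% of the fitted genes, with 3099 higher in both (26.6%) and 3131 lower in both (26.9%). After rescaling, the KO + mutant and het libraries did not overlap for 2138 genes higher (18.4%) and 2083 lower (17.9%). Leaving out a KO + mutant library changed the calls most. Without KO + mutant replicate 1 there were 202 genes called higher and 9 lower, and without KO + mutant replicate 2 there were 178 higher and 499 lower. These sets of 211 and 677 genes share 12 genes, of which 6 have the same sign in both. All gene-level statements that follow are therefore values and ranks, and none is a call.

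A 2-fold difference in the same direction in both replicates was held by 56 genes higher in KO + mutant cells (0.747% of 7497) and 95 lower (1.27%). Among them, 33 higher and 87 lower were of the kinds that could be named, after predicted genes, clones, pseudogenes, small RNAs and ribosomal protein genes were set aside. The 12 with the largest smaller ratio in each direction are described below, and their values are plotted by library. As they were picked by these ratios, any lack of overlap between the groups follows largely from the choice. Over all fitted genes, 18.4% were higher and 17.9% lower without overlap.

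**Figure D1:**
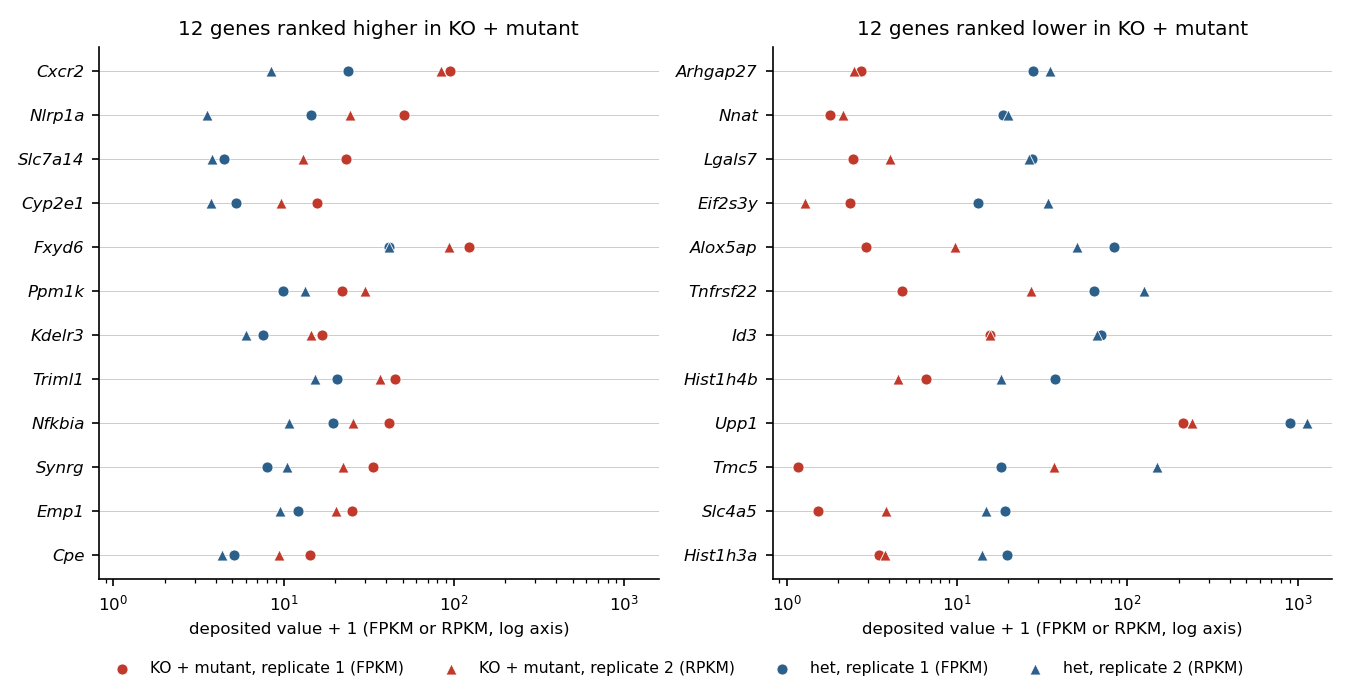
Deposited value plus 1 (FPKM in replicate 1, RPKM in replicate 2, log axis) for the 12 genes ranked higher and the 12 ranked lower in KO + mutant cells, with KO + mutant libraries in red and het libraries in blue. Each point is 1 library; for Nnat the KO + mutant values of 0.799 FPKM and 1.15 RPKM lie far below the het values of 17.6 FPKM and 19.003 RPKM.

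Neuronatin (Nnat), a paternally expressed imprinted gene that encodes a small membrane proteolipid of the developing nervous system, combined a large difference with close values within each group. It was at 0.799 FPKM and 1.15 RPKM in KO + mutant cells, against 17.6 FPKM and 19.003 RPKM in het cells. Both KO + mutant libraries were far below both het libraries, and the log2 ratios of -3.15 and -3.03 differed little between replicates. The fitted log2 difference was -3.12 ± 0.21 (SE), with a limma adjusted p of 0.201. Over the alternatives of the fit that adjusted p ranged between 0.00696 and 0.819, and the log2 difference between -3.86 (pseudocount of 0.1) and -1.86 (pseudocount of 5). In the KO + mutant replicate 1 table its locus runs from 157382097 to 157392097 on chromosome 2 (mm9) and is shared with Blcap, within which Nnat lies. Reads of overlapping genes may be split between them, and the part of this in the Nnat values was not tested. Blcap was at 15.8 FPKM and 14.4 RPKM in KO + mutant cells, against 35.0 FPKM and 14.6 RPKM in het cells. Its log2 ratios were -0.82 in replicate 1 and 0.22 in replicate 2. In the other lines Nnat was at 24.8 FPKM in KO + wild-type SALL4A and at 6.58 FPKM and 9.69 RPKM in Sall4 KO. It was also at 23.8 FPKM in the Sall1/Sall4 DKO and 2.74 FPKM in its WT, so a low level was not limited to KO + mutant cells.

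Id3, an inhibitor of basic helix-loop-helix factors and a direct target of BMP signals, was also close within each group. It was at 14.6 FPKM and 14.7 RPKM in KO + mutant cells, against 68.9 FPKM and 65.2 RPKM in het cells. The groups did not overlap, and the log2 ratios were -1.88 and -1.83. Id3 was at 26.5 FPKM in KO + wild-type SALL4A and at 130 FPKM and 49.1 RPKM in Sall4 KO. In the Sall1/Sall4 DKO, its WT and both Sall1 lines it was between 23.2 and 40.1 FPKM. A level below het was thus not limited to KO + mutant cells. Upp1, which encodes uridine phosphorylase, was the most abundant gene ranked lower, at 212 FPKM and 239 RPKM in KO + mutant cells, against 900 FPKM and 1128 RPKM in het cells. In the other 7 libraries Upp1 lay between 207 and 425, below both het libraries.

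For several genes ranked lower, het libraries stood above all others measured. Arhgap27, a GTPase-activating protein, was at 1.72 FPKM and 1.47 RPKM in KO + mutant cells, against 26.8 FPKM and 34.1 RPKM in het cells, with a fitted log2 difference of -3.39 ± 0.27 (SE) and a limma adjusted p of 0.226. The remaining 7 libraries held between 1.42 and 3.06. Lgals7 (galectin-7) was at 1.44 FPKM and 3.07 RPKM in KO + mutant cells, against 26.5 FPKM and 25.4 RPKM in het cells, and at 0.821 to 4.85 elsewhere. Slc4a5, a sodium bicarbonate cotransporter, was at 0.521 FPKM and 2.80 RPKM in KO + mutant cells, against 18.1 FPKM and 13.9 RPKM in het cells. Alox5ap, the protein that presents arachidonic acid to 5-lipoxygenase, was at 1.90 FPKM and 8.76 RPKM in KO + mutant cells, against 82.7 FPKM and 50.0 RPKM in het cells. None of these overlapped between the groups, which follows largely from how they were picked.

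Tmc5 and Tnfrsf22 (a mouse decoy receptor for TRAIL) followed the table layout as much as the group. Tmc5 was at 0.165 FPKM and 35.9 RPKM in KO + mutant cells, against 17.1 FPKM and 149 RPKM in het cells. In the 5 other tables that share the layout of KO + mutant replicate 1, it did not exceed 0.277 FPKM. Tnfrsf22 was at 3.78 FPKM and 26.1 RPKM in KO + mutant cells, against 62.5 FPKM and 124 RPKM in het cells, and did not exceed 6.23 FPKM in those 5 tables. The part of annotation in both genes was not tested. The last of the 12 were Eif2s3y, described with the Y-linked genes, and the histone genes Hist1h4b and Hist1h3a.

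Among the genes ranked higher, by the smaller of their log2 ratios in the replicates, Cxcr2 came first; it encodes a chemokine receptor best known from neutrophils. It was at 93.3 FPKM and 82.8 RPKM in KO + mutant cells, against 23.0 FPKM and 7.41 RPKM in het cells. Both KO + mutant libraries were higher, with log2 ratios of 2.26 and 3.55 and a fitted log2 difference of 2.91 ± 0.46 (SE; limma adjusted p 0.460). Slc7a14, a member of the cationic amino acid transporter family, was at 22.4 FPKM and 12.008 RPKM in KO + mutant cells, against 3.44 FPKM and 2.78 RPKM in het cells. Cxcr2 and Slc7a14 had their highest value of the 11 libraries in KO + wild-type SALL4A, at 213 FPKM and 51.5 FPKM, and in Sall4 KO they were at 13.3 FPKM and 17.7 RPKM (Cxcr2) and 1.79 FPKM and 0.714 RPKM (Slc7a14). Sall1 het and Sall1 KO held 70.2 and 95.3 FPKM of Cxcr2 and 12.03 and 16.95 FPKM of Slc7a14. The Sall1/Sall4 DKO and its WT held 21.5 and 17.2 FPKM of Cxcr2 and 5.34 and 4.48 FPKM of Slc7a14. A level of either gene above both het libraries was thus not limited to Sall4 KO cells given a SALL4A protein. These values are given side by side because the comparisons share libraries.

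The same order, with KO + wild-type SALL4A above KO + mutant and both above het, was seen for Cyp2e1, a cytochrome P450 that oxidises ethanol, for Ppm1k, the phosphatase that activates branched-chain ketoacid dehydrogenase, and for Synrg, a partner of the AP-1 clathrin adaptor. Cyp2e1 was at 14.7 FPKM and 8.68 RPKM in KO + mutant cells, against 4.28 FPKM and 2.74 RPKM in het cells. Ppm1k was at 21.1 FPKM and 29.2 RPKM in KO + mutant cells, against 8.89 FPKM and 12.3 RPKM in het cells. Synrg was at 32.4 FPKM and 21.4 RPKM in KO + mutant cells, against 6.94 FPKM and 9.49 RPKM in het cells. KO + wild-type SALL4A held 27.8, 52.2 and 80.6 FPKM of Cyp2e1, Ppm1k and Synrg. Sall1 het and Sall1 KO held 13.2 and 19.02 FPKM of Cyp2e1, 12.3 and 18.2 FPKM of Ppm1k, and 29.5 and 37.2 FPKM of Synrg. The Sall1/Sall4 DKO and its WT held 7.54 and 6.01 FPKM of Cyp2e1 and 5.23 and 3.30 FPKM of Ppm1k. They held 10.4 and 9.83 FPKM of Synrg. Cyp2e1 and Synrg were thus above both het libraries in the Sall1 lines too.

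Nfkbia, the inhibitor that keeps NF-kB in the cytoplasm, was at 40.7 FPKM and 24.4 RPKM in KO + mutant cells, against 18.4 FPKM and 9.81 RPKM in het cells. Emp1, an epithelial membrane protein, was at 24.4 FPKM and 19.3 RPKM in KO + mutant cells, against 11.2 FPKM and 8.54 RPKM in het cells. Emp1 was higher still in Sall4 KO, at 58.5 FPKM and 51.4 RPKM. The other genes ranked higher were Nlrp1a (an inflammasome sensor), Fxyd6 (a regulator of the sodium pump), Kdelr3 (a receptor that returns proteins to the endoplasmic reticulum), Triml1 and Cpe (carboxypeptidase E), with fitted log2 differences between 1.46 and 2.57. In Nlrp1a, Fxyd6, Kdelr3, Triml1 and Cpe both KO + mutant libraries again exceeded both het libraries, which follows largely from how they were picked. Each of the 12 had a limma adjusted p of 0.460.

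Because the study concerns oxidation of methylated cytosine, which in these cells lies mostly at CpG, the promoters of 2 genes ranked lower and 2 ranked higher are shown to make their CpG content visible. The sequences are RefSeq's, in build GRCm38.p6, from 250 bases before to 50 after the annotated start, 5′ to 3′ on the gene's strand, in lower case with each CG in capitals.
Nnat, chr2:157559828-157560127, plus strand: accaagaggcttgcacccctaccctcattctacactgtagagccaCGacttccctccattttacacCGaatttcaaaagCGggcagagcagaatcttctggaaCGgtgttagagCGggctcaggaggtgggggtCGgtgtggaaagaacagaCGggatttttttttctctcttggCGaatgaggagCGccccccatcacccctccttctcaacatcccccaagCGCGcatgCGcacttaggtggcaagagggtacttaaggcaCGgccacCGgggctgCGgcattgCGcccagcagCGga
Id3, chr4:136143572-136143871, plus strand: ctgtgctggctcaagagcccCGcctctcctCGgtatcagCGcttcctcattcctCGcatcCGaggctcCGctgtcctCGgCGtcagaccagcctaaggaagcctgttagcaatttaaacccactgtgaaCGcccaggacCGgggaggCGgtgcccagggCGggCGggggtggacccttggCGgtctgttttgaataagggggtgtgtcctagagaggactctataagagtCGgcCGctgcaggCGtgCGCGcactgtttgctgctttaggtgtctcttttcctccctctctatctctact
Slc7a14, chr3:31310270-31310569, minus strand: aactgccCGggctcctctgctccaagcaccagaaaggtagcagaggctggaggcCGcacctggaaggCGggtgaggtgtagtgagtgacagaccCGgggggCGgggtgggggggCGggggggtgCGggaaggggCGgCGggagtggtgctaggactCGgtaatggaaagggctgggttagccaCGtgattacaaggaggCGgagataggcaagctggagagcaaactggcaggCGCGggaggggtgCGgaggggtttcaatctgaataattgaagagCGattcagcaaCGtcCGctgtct
Cxcr2, chr1:74153744-74154043, plus strand: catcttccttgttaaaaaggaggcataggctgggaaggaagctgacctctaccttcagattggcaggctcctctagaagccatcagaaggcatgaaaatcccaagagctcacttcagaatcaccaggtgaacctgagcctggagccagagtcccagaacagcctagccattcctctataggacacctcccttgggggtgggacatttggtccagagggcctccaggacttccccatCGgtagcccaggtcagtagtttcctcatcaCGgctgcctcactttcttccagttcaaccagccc
The windows of Nnat, Id3 and Slc7a14 hold 17, 19 and 18 CpG, and that of Cxcr2 holds 2. Of 27025 genes with such a window, 31.9% have at least as many CpG as Nnat, 28.4% as many as Id3, 30.1% as many as Slc7a14 and 85.4% as many as Cxcr2, and 94.2% hold at least 1. The dinucleotide CG was counted, and it reads the same on both strands. A window was matched for 18 of the 24 ranked genes, using the first start listed for a gene. The 7 matched genes ranked lower had between 5 and 19 CpG with a median of 8, the 11 matched genes ranked higher had between 2 and 27 with a median of 12, and all windows had a median of 7. Windows above and below the median of all windows were thus found in both directions, but no matched gene ranked lower had as few CpG as Cxcr2. Nnat and Id3, shown for the genes ranked lower, held the most CpG of the 7 matched. DNA modification at these windows was not analysed here.

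The gene lists are described by the fitted genes of each, by how many were higher or lower in both replicates, and by the median fitted log2 difference. No member of any list passed the limma test. For all fitted genes the median was -0.01, and 26.6% were higher and 26.9% lower in both replicates. The groups did not overlap for 18.4% of all fitted genes in the higher direction and 17.9% in the lower. Most members named below were picked by their ratios, so a lack of overlap among them follows in part from that choice.

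**Figure D2:**
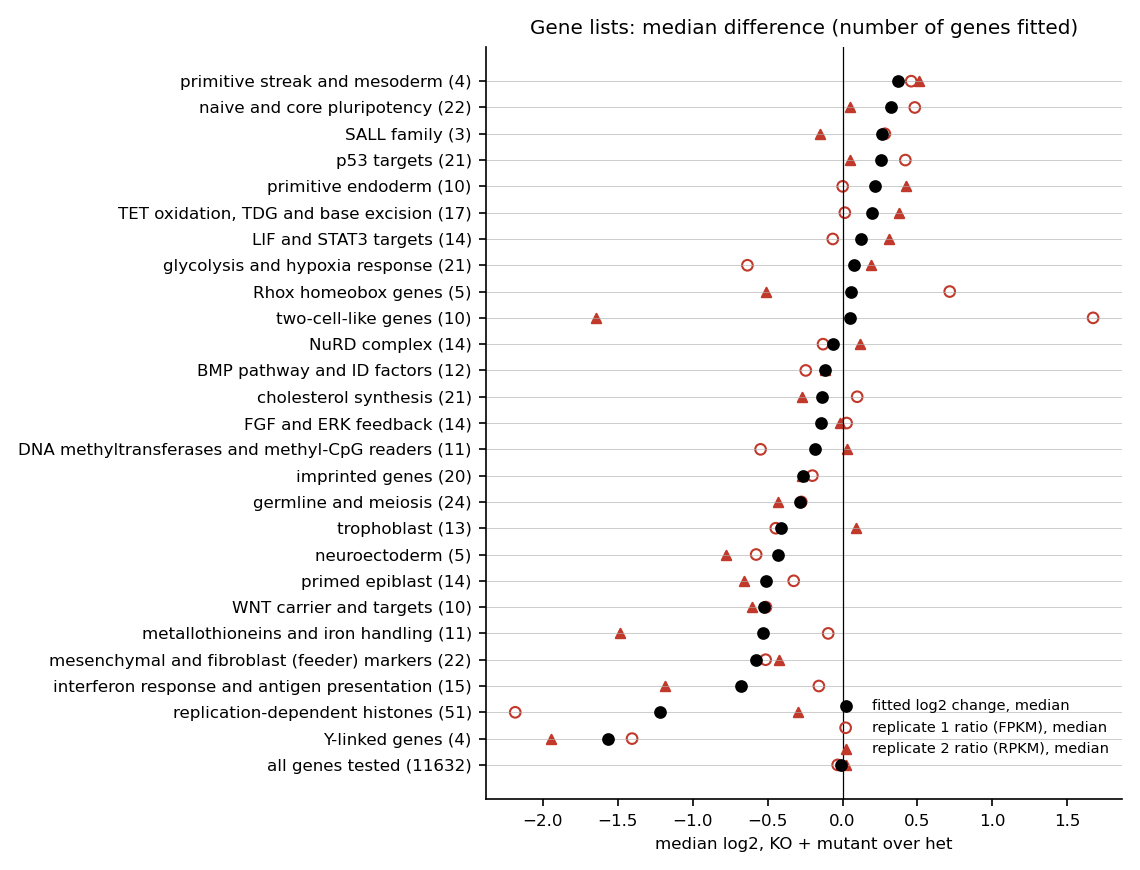
Median log2 difference of KO + mutant over het for 26 gene lists of 3 or more fitted genes and for all genes tested, ordered by the fitted median (black), with the replicate 1 ratio (open circles, FPKM) and the replicate 2 ratio (triangles, RPKM). Lists such as the WNT genes and the mesenchymal markers have both replicate medians on the same side of 0, whereas the Zscan4-type genes (two-cell-like genes in the plot) lie at 1.67 in replicate 1 and -1.64 in replicate 2.

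The BMP and ID list held 12 fitted genes, of which 7 were lower in both replicates and 3 higher in both, with a median of -0.12. The 4 ID genes, which restrain differentiation factors downstream of BMP in ES cells, were each lower in both replicates. Id1 was at 19.5 FPKM and 22.9 RPKM in KO + mutant cells, against 54.1 FPKM and 88.1 RPKM in het cells. Id2 was at 6.78 FPKM and 7.5995 RPKM in KO + mutant cells, against 12.6 FPKM and 16.2 RPKM in het cells. Neither gene overlapped between the groups, whereas for Id4 the values did, at 5.08 FPKM and 2.47 RPKM in KO + mutant cells and 9.57 FPKM and 3.29 RPKM in het cells. Smad1, which carries the BMP signal to the nucleus, had a log2 difference of 0.54 ± 0.21 (SE). KO + wild-type SALL4A held 23.1 FPKM of Id1 and 7.65 FPKM of Id2, near KO + mutant. Sall4 KO held 171 FPKM and 117 RPKM of Id1 and 49.1 FPKM and 41.2 RPKM of Id2. The Sall1/Sall4 DKO, its WT, Sall1 het and Sall1 KO held 24.9, 6.34, 14.3 and 12.2 FPKM of Id1. They held 32.2, 13.7, 10.3 and 9.42 FPKM of Id2.

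Of 10 fitted WNT genes, 7 were lower and 1 was higher in both replicates, with a median of -0.53. Tcf7l1, which encodes TCF3, a repressor of pluripotency genes that WNT signals relieve, was at 21.7 FPKM and 23.1 RPKM in KO + mutant cells, against 79.1 FPKM and 67.1 RPKM in het cells. Its fitted log2 difference was -1.40 ± 0.22 (SE; limma adjusted p 0.460), and the groups were well apart. Notum, a secreted WNT-inactivating enzyme and WNT target, was at 10.2 FPKM and 12.8 RPKM in KO + mutant cells, against 27.04 FPKM and 40.9 RPKM in het cells. Myc was at 4.28 FPKM and 4.45 RPKM in KO + mutant cells, against 9.77 FPKM and 22.9 RPKM in het cells. Lef1, a WNT-responsive factor that also marks the primed epiblast, was at 1.63 FPKM and 1.86 RPKM in KO + mutant cells, against 3.45 FPKM and 4.22 RPKM in het cells. Wls, the carrier needed for WNT secretion, was the member higher in both replicates, with a log2 difference of 0.58. Sall4 KO libraries held 68.6 FPKM and 69.0 RPKM of Tcf7l1 and 35.3 FPKM and 32.2 RPKM of Notum. KO + wild-type SALL4A held 21.9 FPKM and 12.9 FPKM of them, close to KO + mutant. The Sall1/Sall4 DKO, its WT, Sall1 het and Sall1 KO held 30.4, 24.4, 24.0 and 23.0 FPKM of Tcf7l1. They held 39.3, 7.78, 8.15 and 7.70 FPKM of Notum. Among FPKM libraries Tcf7l1 thus followed the table layout as much as the group, and the part of annotation was not tested.

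Markers of the primed epiblast, the state that follows naive pluripotency, had a median of -0.51 over 14 fitted genes, with 7 lower and 1 higher in both replicates. Dnmt3b, a de novo DNA methyltransferase, was at 22.3 FPKM and 23.5 RPKM in KO + mutant cells, against 59.8 FPKM and 47.9 RPKM in het cells. Sox11 was at 2.47 FPKM and 1.72 RPKM in KO + mutant cells, against 6.21 FPKM and 4.01 RPKM in het cells, and Zic5 had a log2 difference of -0.59 ± 0.24 (SE). Otx2, the member higher in both replicates, was near equal, with log2 ratios of 0.00049 and 0.019. The other 6, among them Fgf5, Sox3, Zic2 and Dusp6, had opposite signs in the replicates. Naive and core pluripotency genes had a median of 0.32 over 22 fitted genes, with 11 higher and 3 lower in both replicates and median log2 ratios of 0.48 in replicate 1 and 0.049 in replicate 2. Tfcp2l1, a naive-state transcription factor downstream of LIF, was at 13.1 FPKM and 12.8 RPKM in KO + mutant cells, against 7.09 FPKM and 4.55 RPKM in het cells. Tcl1, a coactivator of AKT, was at 53.3 FPKM and 74.0 RPKM in KO + mutant cells, against 43.4 FPKM and 35.3 RPKM in het cells. Dppa5a was at 4337 FPKM and 3376 RPKM in KO + mutant cells, against 1154 FPKM and 2079.8 RPKM in het cells, and Prdm14 had a log2 difference of 0.69 ± 0.28 (SE). In Tfcp2l1, Tcl1, Dppa5a and Dnmt3b the groups did not overlap. Nanog was not of this kind. It was at 386 FPKM and 233 RPKM in KO + mutant cells, against 138 FPKM and 397 RPKM in het cells, with opposite signs in the replicates. In all, 8 fitted naive and core members had opposite signs, Nanog, Pou5f1, Tbx3, Nr5a2, Dppa2 and Gdf3 among them. Klf2, Utf1 and Dppa3 were the 3 lower in both replicates, and Klf4 and Esrrb were not fitted.

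Dppa3 (Stella), a maternal factor that protects DNA from active demethylation and a marker of naive ES cells, ran against the naive list; it was singled out after its values were seen. It was at 26.4 FPKM and 12.7 RPKM in KO + mutant cells, against 47.7 FPKM and 183 RPKM in het cells. Both KO + mutant libraries were lower, with log2 ratios of -0.54 and -3.50 that differed widely between replicates, and a fitted log2 difference of -2.03 ± 0.70 (SE; limma adjusted p 0.465). Sall4 KO held 2.11 FPKM and 3.58 RPKM of Dppa3, and KO + wild-type SALL4A held 101 FPKM.

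**Figure D3:**
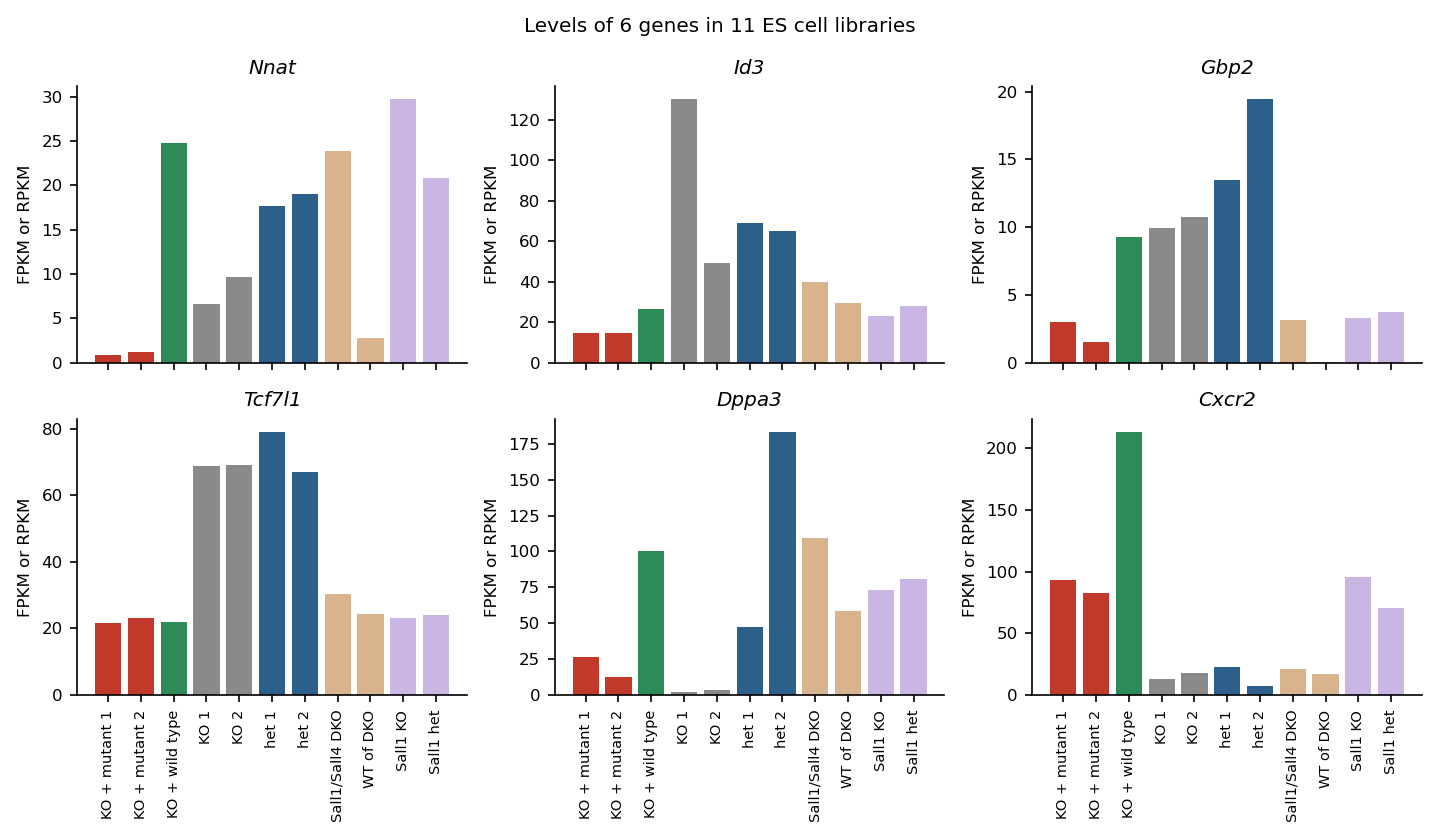
Deposited level (FPKM, or RPKM in libraries numbered 2) of Nnat, Id3, Gbp2, Tcf7l1, Dppa3 and Cxcr2 in 11 ES cell libraries, 1 bar per library with no error bar. Tcf7l1 is near 22 FPKM or RPKM in KO + mutant and KO + wild-type cells and at 67.1 RPKM or more in Sall4 KO and het cells. It is also low, between 23.0 and 30.4 FPKM, in the Sall1/Sall4 DKO, its WT and the Sall1 lines, whose tables share the layout of KO + mutant replicate 1. Nnat is lowest in the 2 KO + mutant libraries.

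Genes of the interferon response and antigen presentation had a median of -0.67 over 15 fitted genes, with 8 lower and 0 higher in both replicates. The median log2 ratio was -0.16 in replicate 1 and -1.19 in replicate 2, and the summed level of the fitted genes was 1391.5 FPKM and 1225 RPKM in KO + mutant cells, against 1109.7 FPKM and 2113 RPKM in het cells. The sum was thus higher in KO + mutant in replicate 1 and lower in replicate 2, as was Ifitm1, the most abundant member, at 1067 FPKM and 959 RPKM in KO + mutant cells, against 611 FPKM and 1521.5 RPKM in het cells. Irf1, an interferon-induced transcription factor, was at 14.015 FPKM and 8.93 RPKM in KO + mutant cells, against 44.1 FPKM and 44.4 RPKM in het cells. Gbp2, an interferon-induced GTPase, was at 2.99 FPKM and 1.49 RPKM in KO + mutant cells, against 13.5 FPKM and 19.4 RPKM in het cells. H2-K1, a class I histocompatibility heavy chain, was at 16.6 FPKM and 10.1 RPKM in KO + mutant cells, against 48.7 FPKM and 31.3 RPKM in het cells. The groups did not overlap in Irf1, Gbp2 and H2-K1, nor in Oasl2, with a log2 difference of -1.25 ± 0.24 (SE). Psmb8, an immunoproteasome subunit, Isg15 and Bst2 were also lower in both replicates, with log2 differences of -1.95, -1.60 and -0.67. The other 7 fitted members had opposite signs in the replicates.

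Mesenchymal and fibroblast markers, listed because fibroblast feeders or differentiating cells could be present, had a median of -0.57 over 22 fitted genes, with 14 lower and 4 higher in both replicates. Vim (vimentin) was at 68.3 FPKM and 37.9 RPKM in KO + mutant cells, against 272 FPKM and 121 RPKM in het cells. Tagln, an actin-binding protein of smooth muscle, was at 8.04 FPKM and 5.27 RPKM in KO + mutant cells, against 26.3 FPKM and 38.8 RPKM in het cells. Col1a2 was at 1.14 FPKM and 0.225 RPKM in KO + mutant cells, against 5.21 FPKM and 1.79 RPKM in het cells, and Acta2 had a log2 difference of -0.96 ± 0.28 (SE). The 4 higher in both replicates were Fn1, Fstl1, Anxa1 and S100a4, with log2 differences of 0.52, 0.83, 0.53 and 0.44. The summed level of the fitted markers was 509 FPKM and 447 RPKM in KO + mutant cells, against 966 FPKM and 719 RPKM in het cells. The defining fibroblast markers were low in both replicate 1 tables and did not all differ the same way. Dcn was listed at 0 FPKM in both, and Lum at 0 FPKM in KO + mutant against 0.0463 FPKM in het. Postn was at 0.0384 FPKM in KO + mutant against 0.352 FPKM in het, and Col3a1 at 0.158 FPKM in KO + mutant against 0.0786 FPKM in het. Col1a1 was at 0.894 FPKM and 0.395 RPKM in KO + mutant cells, against 3.02 FPKM and 0.471 RPKM in het cells. The part of such cells in the other differences was not tested. In bulk RNA, fewer cells of a type and less RNA per cell cannot be told apart.

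The 4 fitted Y-linked genes were all lower in both replicates, with a median of -1.57. Eif2s3y, the Y-linked copy of a translation initiation subunit, was at 1.34 FPKM and 0.280 RPKM in KO + mutant cells, against 12.3 FPKM and 33.1 RPKM in het cells. Ddx3y, an RNA helicase, was at 0.373 FPKM and 0.147 RPKM in KO + mutant cells, against 2.23 FPKM and 6.34 RPKM in het cells. Sall4 KO was as low, with Eif2s3y at 0.039 FPKM and 1.39 RPKM, and KO + wild-type SALL4A was listed at 0 FPKM, whereas the Sall1/Sall4 DKO, its WT, Sall1 KO and Sall1 het held 51.0, 46.7, 40.1 and 49.4 FPKM. Low Eif2s3y and Ddx3y RNA was thus found in the Sall4 KO, KO + mutant and KO + wild-type libraries, but not in the Sall1/Sall4 DKO. It came beside all the differences described here, and its part in them was not tested.

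p53 target genes had a median of 0.26 over 21 fitted genes, which became -0.0041 with values as deposited, and 10 were higher and 3 lower in both replicates. The median log2 ratio was 0.42 in replicate 1 and 0.0499 in replicate 2. Trp53inp1, a p53-induced regulator of cell death and autophagy, was at 38.6 FPKM and 39.1 RPKM in KO + mutant cells, against 25.2 FPKM and 22.7 RPKM in het cells. Eda2r, a death receptor, was at 15.0 FPKM and 14.6 RPKM in KO + mutant cells, against 7.48 FPKM and 11.013 RPKM in het cells. The groups did not overlap in either gene, and Zmat3 and Gdf15 had log2 differences of 0.59 ± 0.21 and 0.89 ± 0.33 (SE). The 3 lower in both replicates were Mdm2, Bax and Phlda3, with log2 differences of -0.12, -0.31 and -0.09. The other 8, among them Ccng1, Btg2 and Aen, had opposite signs in the replicates.

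Genes of TET oxidation and base excision repair had a median of 0.20 over 17 fitted genes, with 10 higher and 6 lower in both replicates. Neil3, a DNA glycosylase, was at 4.07 FPKM and 4.18 RPKM in KO + mutant cells, against 2.97 FPKM and 2.74 RPKM in het cells. Tdg, the glycosylase that removes the oxidised bases made by TET enzymes, was at 11.018 FPKM and 17.3 RPKM in KO + mutant cells, against 31.4 FPKM and 22.9 RPKM in het cells. Lig3, the ligase that seals the repaired strand, was at 8.70 FPKM and 11.5 RPKM in KO + mutant cells, against 17.6 FPKM and 21.1 RPKM in het cells. The stress-induced genes Gadd45a and Gadd45g, linked to active demethylation, had log2 differences of -0.72 ± 0.24 and -0.74 ± 0.27 (SE). DNA methyltransferases and methyl-CpG readers had a median of -0.18 over 11 fitted genes, with 5 lower and 3 higher in both replicates. Dnmt3a was at 8.27 FPKM and 25.5 RPKM in KO + mutant cells, against 98.5 FPKM and 41.2 RPKM in het cells, with log2 ratios of -3.14 and -0.43. The readers Zbtb33 (Kaiso) and Uhrf2 had log2 differences of 0.66 ± 0.21 and 0.60 ± 0.25 (SE).

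Germline and meiosis genes, many of them silenced by promoter methylation outside the germline, had a median of -0.28 over 24 fitted genes, with 11 lower and 2 higher in both replicates. Hormad2, a meiotic chromosome axis protein, was at 1.04 FPKM and 1.203 RPKM in KO + mutant cells, against 5.26 FPKM and 22.1 RPKM in het cells. Usp26 was at 2.77 FPKM and 1.43 RPKM in KO + mutant cells, against 8.74 FPKM and 12.6 RPKM in het cells. Tuba3a was at 18.7 FPKM and 12.9 RPKM in KO + mutant cells, against 38.1 FPKM and 46.6 RPKM in het cells, and Fkbp6 had a log2 difference of -1.75 ± 0.37 (SE). The groups did not overlap in Hormad2, Usp26 and Tuba3a, which were named for their large ratios. The other 11 fitted members, among them Dazl, Ddx4, Sycp3 and Hormad1, had opposite signs in the replicates.

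Replication-dependent histone genes, whose messages lack a poly(A) tail and whose near-identical copies can share reads, had a median of -1.22 over 51 fitted genes. Of these 32 were lower and 2 higher in both replicates, but the median was -2.19 in replicate 1, where the annotation differs, and -0.30 in replicate 2. Hist1h2bj was at 3.75 FPKM and 4.93 RPKM in KO + mutant cells, against 30.2 FPKM and 20.3 RPKM in het cells. Hist1h4b was at 5.58 FPKM and 3.48 RPKM in KO + mutant cells, against 36.4 FPKM and 17.1 RPKM in het cells, and Sall4 KO held 17.6 FPKM and 1.60 RPKM. The sources used here do not say how RNA was selected for these libraries, and its part in the histone values was not tested.

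**Figure D4:**
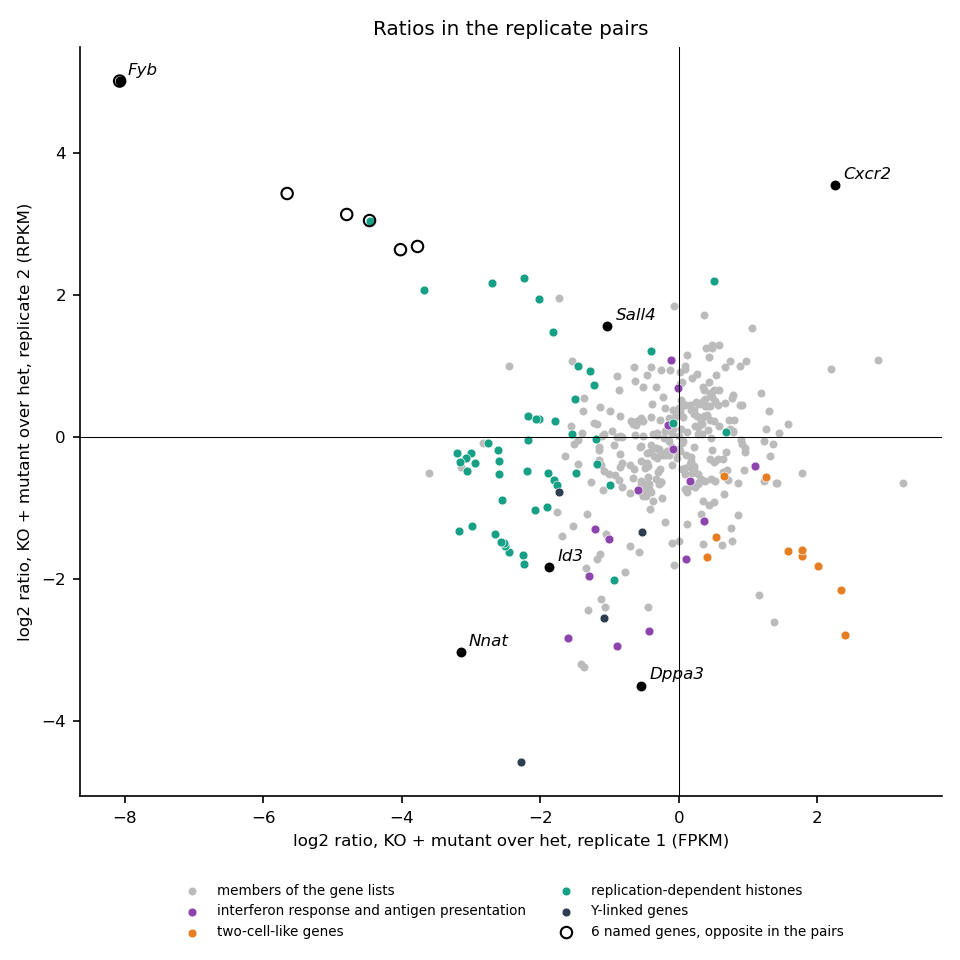
Log2 ratio of KO + mutant over het in replicate 2 (RPKM) against that in replicate 1 (FPKM), 1 point per gene, for the members of the gene lists (grey, with 4 lists coloured), for 6 named genes and for 6 genes of opposite sign (open circles). Nnat and Id3 lie low in both replicates and Cxcr2 high in both, whereas Fyb, at -8.07 and 5.02, and Sall4, at -1.04 and 1.56, have opposite signs.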

How the data were processed

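Gene-level RNA-seq tables of 11 libraries were used. Per the submitters' processing notes, the series used TopHat, Bowtie 0.12.7, SAMtools and MACS 1.4.2 with build mm9. The sources used here do not say which of these tools produced the expression values. Per the file headers, the authors deposited FPKM for replicate 1 libraries and the other lines, and RPKM for the libraries numbered 2 (KO + mutant, KO, het); both are normalised and not counts, so no count test was used, depth is unknown and an exact 0 is only a listed value. A transcript-level table was not used.

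Entries were summed per symbol (18 shifted symbols were set by Ensembl identifier, and 1225 entries with no symbol in each replicate 1 table of Sall4 het and KO were left out), leaving 13107 symbols in all tables compared. Values were scaled by the median ratio (factors 0.922 and 0.915 for KO + mutant, 1.13 and 1.09 for het), and log2(value + 1) was taken, which understates the change of low genes. Ratios were formed within a replicate number. The model (limma 3.58.1, R 4.3.3; lmFit and trended eBayes, two-sided) was fitted to KO + mutant, het and Sall4 KO with terms for group and replicate number, on genes reaching 1 in no fewer than 2 of the 6 libraries, with Benjamini-Hochberg adjustment over all genes at 0.05. The replicate block is in the fit because the number marks unit and strain label; same-numbered libraries correlated in their deviations from group means at 0.103 (KO + mutant and het), 0.063 (KO + mutant and KO) and 0.579 (het and KO).

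Named genes were SALL and TET genes; 12 per direction, called genes first, by the smaller within-replicate ratio at a scaled value of 5 or more in both libraries of the higher group; up to 4 per list by the same measure; and 6 with opposite ratios of 2-fold or more. Predicted genes, clones, pseudogenes, small RNAs and ribosomal protein genes were not named, and Tdg, Id4, Wls, Psmb8, Isg15, Bst2, Nanog and Zscan4c, outside this rule, were picked for their role after values were seen, as were those said to be in the text. The members and the 27 gene lists were chosen with earlier results of these data known. Lists got no set test. CpG were counted in RefSeq promoters (GRCm38.p6). Fitting and ratio code was tested on simulated data. Other software was matplotlib 3.10.9, numpy 2.4.6, pandas 2.3.3 and Python 3.11.15. Alternatives were the block, the libraries fitted, the pseudocount, the filter, the scaling, the prior and each library left out.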

Additional observations from a re-analysis of the deposited data

Results flagged for a closer look

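For Sall4, 6 named genes and the Zscan4-type genes, the libraries of the 2 strain labels moved in opposite directions, so the replicate 1 and replicate 2 differences disagree; the difference between replicates was not tested. For Sall4 the log2 ratios were -1.04 (replicate 1) and 1.56 (replicate 2). The 6 genes with the largest opposite ratios, of 87 that could be named, were all lower in replicate 1 and higher in replicate 2. The log2 ratios were -8.07 and 5.02 for Fyb, -5.66 and 3.43 for Gadl1, and -4.80 and 3.14 for Sept10. They were -4.47 and 3.05 for Hist1h2ac, -3.77 and 2.69 for Lmbr1, and -4.02 and 2.64 for Aldoart1. Fyb was at 0.015 FPKM and 32.8 RPKM in KO + mutant cells, against 309 FPKM and 0.151 RPKM in het cells. Sall4 KO replicate 1, which shares the table layout of het replicate 1, held 160 FPKM of Fyb, and the 5 tables that share the layout of KO + mutant replicate 1 held at most 0.0473 FPKM.

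The 10 fitted genes here called Zscan4-type mark a rare totipotent-like state of ES cells and include near-identical copies. They are Zscan4b to Zscan4f and the unrelated Dub1, Dub1a, Dub2a, Tdpoz4 and Sp110. Their median log2 ratios were 1.67 (replicate 1) and -1.64 (replicate 2), and each member was higher in replicate 1 and lower in replicate 2. Zscan4c was at 34.0 FPKM and 2.31 RPKM in KO + mutant cells, against 7.30 FPKM and 16.02 RPKM in het cells.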

How the results depend on the processing

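No gene passed the threshold under 12 of 15 alternatives of the fit, among them the fit with no replicate block (0 calls, smallest adjusted p 0.0740). With a pseudocount of 0.1 there was 1 call, a microRNA gene. Leaving out 1 library gave between 0 and 677 calls. The count of genes past 2-fold in both replicates was 11 higher and 16 lower at 3-fold, and 32 higher and 217 lower with values as deposited. All 24 ranked genes kept their sign under every alternative of the fit, as did 114 of the 128 named genes fitted and 15 of 26 list medians. Without KO + mutant replicate 2, 19 of the 24 ranked genes passed 0.05, and without replicate 1, 4 did; then 1 library stands for the group and is assumed to vary like the others.

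With values as deposited the sign turned for Sall4 (-0.0076), Mta3 (-0.0092), Pou5f1 (-0.23), Zscan4c (-0.14), and the medians of the SALL (-0.0076), Zscan4-type (-0.16), Rhox (-0.20), p53 (-0.0041), LIF (-0.12) and glycolysis (-0.20) lists. Quantile normalization turned Pou5f1 (-0.045) and the NuRD median (0.0074); the pseudocount of 0.1 turned the Zscan4-type median (-0.069); a fit of 4 libraries (-0.043) and a filter of 5 (-0.044) turned the glycolysis median. The filter of 5 moved the neuroectoderm median to -3.12 and the Y-linked median to -3.47, which the pseudocount of 0.1 moved to -2.86.

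Leaving out 1 library in turn, log2 differences ranged between -0.20 and 0.94 (Sall1), -0.71 and 0.28 (Sall2), -0.84 and 1.29 (Sall4), -0.041 and 1.34 (Pgk1), -0.17 and 0.19 (Pou5f1), -0.49 and 1.68 (Nanog), -1.87 and 2.05 (Zscan4c), -7.89 and 4.75 (Fyb), -5.85 and 3.47 (Gadl1), -4.30 and 2.58 (Sept10), -4.31 and 2.84 (Hist1h2ac), -2.99 and 1.86 (Lmbr1), and -3.97 and 2.51 (Aldoart1). List medians ranged between -0.20 and 0.28 (SALL), -0.45 and 0.030 (DNA methyltransferases and readers), -0.66 and 0.0082 (trophoblast), -1.56 and 1.58 (Zscan4-type), -0.42 and 0.77 (Rhox), -0.32 and 0.068 (cholesterol), -0.15 and 0.095 (FGF), -0.045 and 0.20 (LIF), -0.12 and 0.077 (NuRD), -0.40 and 0.28 (glycolysis), and -2.27 and -0.37 (histones). The cause of these turns was not tested. Depth is unknown, and 2 libraries a group limit what could be called.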

Other observations

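The remaining lists held no gene past the limma threshold, and their values are given as measured. Imprinted genes had a median log2 difference of -0.26 over 20 fitted genes, with 7 lower and 4 higher in both replicates. Besides Nnat, Dlk1 was at 0.429 FPKM and 0.650 RPKM in KO + mutant cells, against 1.58 FPKM and 2.13 RPKM in het cells, and Phlda2 at 15.3 FPKM and 8.85 RPKM in KO + mutant cells, against 25.9 FPKM and 60.5 RPKM in het cells. Peg3, a paternally expressed zinc finger gene, had a log2 difference of 0.71 ± 0.23 (SE). Metallothionein and iron genes had a median of -0.53 over 11 fitted genes, with 5 lower and 2 higher in both replicates. Their median log2 ratio was -0.096 in replicate 1 and -1.49 in replicate 2, and the abundant Mt1 and Mt2 had opposite signs in the replicates, with log2 ratios of 1.16 and -2.23 (Mt1) and of 1.37 and -2.60 (Mt2). Hmox1, the haem-degrading oxygenase, was at 41.7 FPKM and 71.6 RPKM in KO + mutant cells, against 118 FPKM and 283 RPKM in het cells, and Mt4 at 2.80 FPKM and 1.41 RPKM in KO + mutant cells, against 10.7 FPKM and 25.2 RPKM in het cells. Ftl1, ferritin light chain, was at 2627 FPKM and 944 RPKM in KO + mutant cells, against 439 FPKM and 528 RPKM in het cells, and has many processed copies in the genome that can share its reads. Slc40a1, the iron exporter ferroportin, had a log2 difference of 0.52 ± 0.20 (SE).

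Markers of other lineages were mixed. Primitive endoderm markers had a median of 0.21 over 10 fitted genes, with Cited1 and Sparc at log2 differences of -1.61 and -1.41 and the collagens Col4a1 and Col4a2 at 0.91 and 0.83. Trophoblast markers had a median of -0.41 over 13 genes, neuroectoderm markers -0.43 over 5 and primitive streak and mesoderm markers 0.37 over 4. Lefty1, a NODAL antagonist, was at 109 FPKM and 53.5 RPKM in KO + mutant cells, against 67.7 FPKM and 29.7 RPKM in het cells, which overlap. The medians were -0.14 for 21 cholesterol genes, -0.14 for 14 FGF genes, 0.12 for 14 LIF and STAT3 genes, -0.07 for 14 NuRD genes, 0.08 for 21 glycolysis genes, 0.06 for 5 Rhox genes and 0.26 for the 3 SALL genes fitted. Hoxb9 was the single Hox gene fitted, at 0.713 FPKM and 0.581 RPKM in KO + mutant cells, against 0.517 FPKM and 0.518 RPKM in het cells.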
